A study of Homo sapiens with 2 samples.

Results

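The cytosolic and mitochondrial chaperones were examined as a set of 42 genes, chosen by name and matched by Entrez ID among 16399 genes with a value. They comprised the transcription factor HSF1, 7 genes of the HSP70 families, 3 of the HSP90 family, the mitochondrial chaperonin pair HSPD1 and HSPE1, 3 small heat shock proteins, 8 DNAJ proteins, 3 BAG proteins, 7 other co-chaperones and the 8 subunits of the cytosolic chaperonin CCT. The study sequenced RNA of A549, an established human lung adenocarcinoma line grown in DMEM with serum, as 1 library of cells with the vector and 1 library of cells overexpressing SFB-tagged PKP2, both at passage 5. PKP2 is plakophilin 2, a plaque protein of desmosomes, and the question was which genes lie downstream of it. The labels give neither the promoter of the construct nor whether the cells were a clone or a pool. With 1 library per group no difference has a replicate check, no test between the conditions was possible, and every comparison is between these libraries.

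Chaperones bind unfolded or partly folded proteins and keep them from aggregating. HSP70 proteins bind short hydrophobic stretches in a cycle of ATP hydrolysis that DNAJ proteins start and nucleotide exchange factors, such as the BAG proteins and HSPH1, reset. Clients can pass on to HSP90 through STIP1, while CCT encloses actin, tubulin and other proteins in a double ring. HSF1 drives the transcription of many of these genes after heat or other protein damage. It binds heat shock elements, which are alternating GAA and TTC units, and under unstressed conditions it is held back by the chaperones themselves.

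The libraries summed to 16996976 estimated counts for vector and 16808842 for PKP2. Levels are given as CPM, the counts per 1000000 of the library total, and 12820 genes reached 1 CPM in at least 1 library, here called expressed. PKP2 itself was at 27.3 CPM in vector and 268 CPM in PKP2 (464 and 4505 counts). The epithelial keratins KRT8 and KRT18 were at 3849 to 5416 CPM, while EPCAM was at 1.37 to 1.47 CPM. Of the alveolar type II genes, the surfactant gene SFTPB was at 0 and 0.0595 CPM and the lipid transporter ABCA3 at 91.7 and 83.1 CPM. Among the markers of other cells, the 4 fibroblast genes with a value summed to 9.53 CPM in vector and 11.7 CPM in PKP2, and the endothelial genes VWF and CDH5 lay between 0 and 0.654 CPM. The macrophage gene CD68, which many cell types express in lysosomes, was at 78.4 and 82.5 CPM, and the lysozyme gene LYZ was at 0.342 and 0.246 CPM. The markers SFTPC, SFTPA1, COL1A2, DCN, PECAM1, PTPRC and CD3E were not analysed here. All 10 ribosomal protein genes looked up as a sign of RNA quality were higher in the PKP2 library, from 13531 to 15252 CPM in sum. After removal of a trend on transcript length and GC content, described further on, 8 lay above 0 and 2 below. Their median log2 difference went from 0.17 to 0.10. RNA integrity itself was not measured here.

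Heat shock elements were looked for in the 250 bases before each RefSeq transcription start (GRCh38.p14), where 36 of the 42 members matched an entry. HSF1, HSPA14, CRYAB, STUB1, FKBP4 and CCT6A had no entry. The letters searched were GAANNTTC and TTCNNGAA, each of which reads the same on both strands, and then runs of 3 alternating units, which hold overlapping matches of the shorter kind. Of all 27305 genes with a window, 13.96% held the 2-unit letters and 0.557% the 3-unit run. Among the chaperones 16 of 36 (44.4%) held the former and 6 (16.7%) the latter. These 6 were CHORDC1, DNAJB6, HSP90AA1, HSP90AB1, HSPA8 and HSPD1. Of the 15 genes listed as heat-inducible targets of HSF1 that had a window 10 held the 2-unit letters, and of the 21 others 6 did. A match describes letters in a window and is no evidence of binding. The stretches below are shown because they belong to the expressed member with the highest ratio of PKP2 to vector (HSPB1), to a member of nearly equal level with a pair of 3-unit runs (HSP90AB1), and to the near-identical genes whose reads cannot be fully separated (HSPA1A and HSPA1B). Each runs 5′ to 3′ and stops before the first exon base that GENCODE release 29 places in the window, and capitals mark the matched letters.
HSPB1, chr7:76302423-76302543, plus strand: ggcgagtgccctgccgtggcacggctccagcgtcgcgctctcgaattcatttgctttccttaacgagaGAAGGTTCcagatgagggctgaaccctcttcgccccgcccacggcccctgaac
HSP90AB1, chr6:44247693-44247865, plus strand, inside the gene before the most downstream of 3 listed starts: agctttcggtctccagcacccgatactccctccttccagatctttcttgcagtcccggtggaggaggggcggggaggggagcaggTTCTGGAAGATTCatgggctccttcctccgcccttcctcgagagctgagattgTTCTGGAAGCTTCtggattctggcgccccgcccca
HSPA1A, chr6:31815293-31815463, plus strand: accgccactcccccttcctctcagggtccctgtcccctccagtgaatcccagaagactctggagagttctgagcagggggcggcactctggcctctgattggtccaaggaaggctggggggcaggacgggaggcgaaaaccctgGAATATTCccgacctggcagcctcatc
HSPA1B, chr6:31827488-31827734, plus strand: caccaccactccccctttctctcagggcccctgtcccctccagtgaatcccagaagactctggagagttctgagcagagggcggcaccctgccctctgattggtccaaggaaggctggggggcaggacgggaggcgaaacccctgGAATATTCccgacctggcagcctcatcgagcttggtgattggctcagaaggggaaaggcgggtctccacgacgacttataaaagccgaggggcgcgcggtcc
When the full windows of HSPA1A and HSPA1B were aligned, 235 of 250 bases (94%) were identical.

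Chaperone transcripts were close to equal in the libraries. Differences are given as log2(CPM + 1) in PKP2 minus vector, and ratios as plain ratios of CPM with an exact 95% Clopper-Pearson interval that covers counting error only. In such bulk libraries a change in the share of cells with a transcript and a change in its amount per cell cannot be told apart. Of the 42 members 41 were expressed, and CRYAB was not. The median difference of the 41 was 0.02, with an interquartile range from -0.03 to 0.10 and an SD of 0.12. Over all expressed genes the median was 0.00, and over the 7834 genes averaging at least 20 CPM, the range in which the expressed chaperones lay, it was -0.01 with an SD of 0.19. Only HSPB1 was at least 1.2-fold higher in the PKP2 library and no member was at least 1.2-fold lower. The same step was passed by 8.70% of expressed genes upward and 11.0% downward, and by 4.53% and 9.97% of the genes at 20 CPM or more.

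At a step of 1.1-fold, added after the values were seen, 6 chaperones were higher (HSPB1, DNAJC7, HSPE1, HSPB8, CDC37 and DNAJB2) and 5 were lower (HSPA8, HSPH1, BAG1, BAG2 and HSP90AA1). Of all expressed genes 23.4% were higher and 25.5% lower at this step, and of genes at 20 CPM or more 18.2% and 25.5%. The counting interval lay above a ratio of 1 for 14 chaperones and below it for 8, against 21.4% and 27.5% of genes at 20 CPM or more, while 19 intervals included 1. Their summed share was 1.73% in vector and 1.69% in PKP2, a ratio of 0.976 (0.971 to 0.981). HSPA8 and HSP90AA1 set the direction of that sum. Without them the ratio was 1.02 (1.01 to 1.02).

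**Figure D1:**
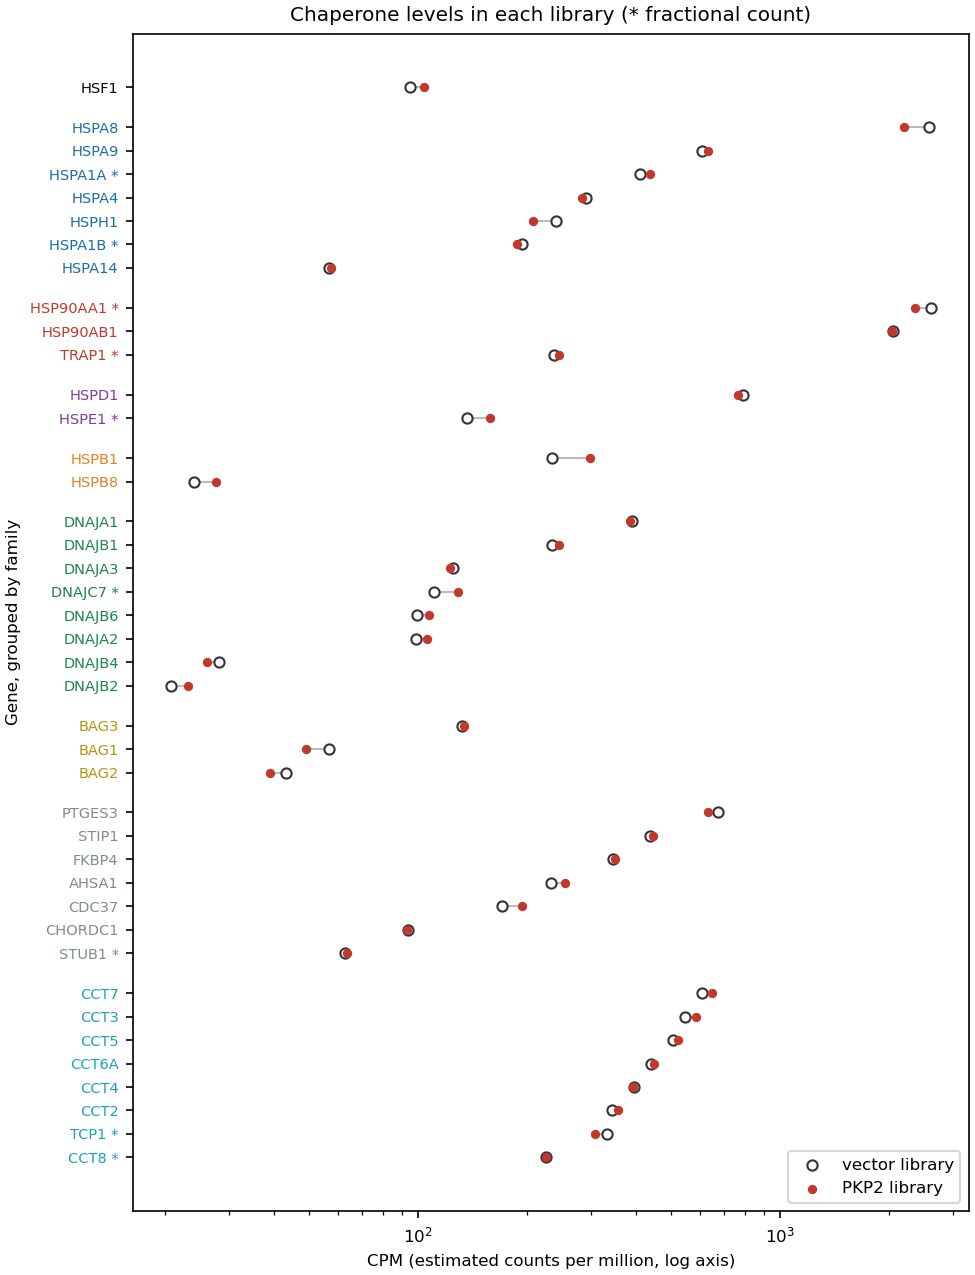
CPM of the 41 expressed chaperones (log axis) in the vector library (open circles) and the PKP2 library (filled circles), grouped by family and ordered by mean CPM within it; an asterisk marks a fractional count. The paired points nearly coincide for most genes, and the widest gaps are at HSPB1, at 234 and 299 CPM, and at HSPA8, at 2572 and 2199 CPM.

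HSF1, the regulator, was slightly higher in the PKP2 library. It was at 95.1 CPM (1617 counts) in vector and 103.8 CPM (1744 counts) in PKP2, a ratio of 1.09 (1.02 to 1.17). The difference of HSF1 went from 0.12 to 0.03 after removal of the library-wide trend on transcript length and GC content, described further on. The members listed as its targets differed in direction. Of the 15 expressed members listed as heat-inducible, 7 were higher and 8 lower, with a median of -0.01, and over the 26 other members 18 were higher and 8 lower, with a median of 0.03. After removal of the length and GC trend, 3 of the heat-inducible members were above 0 and 12 below, with a median of -0.04. Of the others 15 were above and 11 below, with a median of 0.01. Over all expressed genes the median after that removal was -0.01, and the share of them below 0 was not counted. Several of the 12, such as AHSA1 and HSPA1A at -0.02, lay near that median. The heat-inducible members included the highest difference of the set, HSPB1, and the lowest, HSPA8. BAG3, an exchange factor that is among the most responsive heat shock genes, was at 132 and 134 CPM, a ratio of 1.01 (0.952 to 1.07). DNAJB1, the classical inducible HSP40, was at 234 and 244 CPM, a ratio of 1.04 with an interval from 1.000 to 1.09.

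HSP70 genes differed mainly through HSPA8. This gene (chromosome 11, 123057489 to 123063230, minus strand, GRCh38) encodes HSC70, the constitutive cytosolic HSP70, and was the most abundant member of the whole set per transcript length, at a mean of 968 CPM per kilobase of its longest transcript. It was at 2572 CPM (43715 counts) in vector and 2199 CPM (36955 counts) in PKP2, 1.17-fold lower (1.15 to 1.19). HSPH1, an HSP110 that resets HSP70 by nucleotide exchange, was at 241 CPM in vector and 208 CPM in PKP2, 1.16-fold lower (1.11 to 1.21). These 2 genes had the lowest differences of the set, -0.23 and -0.21. The HSP70 sum was 4369 CPM in vector and 4002 CPM in PKP2, a ratio of 0.916 (0.906 to 0.926), but without HSPA8 the sums were 1797 and 1804 CPM, a ratio of 1.00 (0.988 to 1.02). In the family's summed CPM per kilobase HSPA8 took 68.1% in vector and 64.4% in PKP2.

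The stress-inducible HSP70 genes HSPA1A (chromosome 6, 31815464 to 31817946) and HSPA1B (31827735 to 31830255 on the same strand) have fractional counts. Their principal transcripts share 1766 windows of 50 bases, 72.6% of those of HSPA1A and 71.4% of those of HSPA1B. HSPA1A was at 408 and 436 CPM, a ratio of 1.07 (1.03 to 1.103), and HSPA1B at 193 and 188 CPM, a ratio of 0.974 (0.927 to 1.02). After removal of the length and GC trend the difference of HSPA1A turned from 0.09 to -0.02 and that of HSPA1B went from -0.04 to -0.15. How the reads were divided between them is uncertain, and HSPA1A took 67.9% of the pair in vector and 69.9% in PKP2. Their estimated counts summed to whole numbers, 10223 in vector and 10488 in PKP2, or 601 and 624 CPM, a ratio of 1.04 (1.01 to 1.07).

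Other HSP70 relatives were near equal. HSPA9, the mitochondrial HSP70 called mortalin, was at 608 and 631 CPM, a ratio of 1.04 (1.01 to 1.07). HSPA4, another HSP110, was at 291 and 284 CPM, a ratio of 0.976 (0.938 to 1.02). HSPA14, a ribosome-associated HSP70, was the least abundant of the family per length, at 56.8 and 57.5 CPM.

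In the HSP90 family, the inducible cytosolic isoform was lower, and the constitutive isoform differed by less than the counting error. HSP90AA1 (chromosome 14, 102080738 to 102139699, minus strand), which has a fractional count, was at 2601 CPM in vector and 2352 CPM in PKP2, 1.11-fold lower (1.09 to 1.12). HSP90AB1 (chromosome 6, 44246166 to 44253888), the constitutive isoform whose upstream stretch with a pair of 3-unit runs is printed above, was at 2047 and 2036 CPM, a ratio of 0.995 (0.980 to 1.01). TRAP1, the mitochondrial HSP90, also fractional, was at 238 and 245 CPM, a ratio of 1.03 (0.988 to 1.08). The intervals of the cytosolic isoforms do not overlap, which concerns counting error in these libraries only. Per kilobase the cytosolic isoforms were near each other, at means of 763 for HSP90AB1 and 705 for HSP90AA1, and TRAP1 was at 105.

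The mitochondrial chaperonin genes went opposite ways. HSPD1, the HSP60 barrel, and HSPE1, its HSP10 lid, lie head to head on chromosome 2, with RefSeq start sites 105 bases apart at 197500274 (minus strand) and 197500379 (plus strand). HSPD1 was at 788 CPM in vector and 764 CPM in PKP2, a ratio of 0.970 (0.947 to 0.994). HSPE1, with a fractional count, was at 137 and 158 CPM, a ratio of 1.16 (1.09 to 1.22). Of the 50-base windows of HSPE1, 15.98% also occur in the readthrough gene HSPE1-MOB4, which was at 0.262 and 0.818 CPM. The longest transcript of HSPE1 has 950 bases, the shortest of the set, and once the library-wide trend on length and GC content was taken out its difference was 0.03 instead of 0.21. The 5 mitochondrial members also include HSPA9, TRAP1 and the HSP70 partner DNAJA3, at 125 and 123 CPM. Of the 5, 3 were higher and 2 lower, with a median of 0.05. After removal of the trend 2 lay above 0 and 3 below, with a median of -0.06.

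Small heat shock proteins were the group with the highest ratio. HSPB1 (chromosome 7, 76302544 to 76304295, plus strand), which encodes HSP27, an ATP-independent holdase that also binds actin, was at 234 CPM (3984 counts) in vector and 299 CPM (5026 counts) in PKP2. This is a ratio of 1.28 (1.22 to 1.33) and a difference of 0.35. HSPB8, the partner of BAG3 in selective autophagy, was at 24.1 and 27.7 CPM, a ratio of 1.15 (1.01 to 1.32). CRYAB, alpha-B crystallin, had 2 counts in vector and 5 in PKP2, a ratio of 2.53 with an interval from 0.414 to 26.5, so no difference was detectable at this depth. The group sum, most of which is HSPB1, went from 259 to 327 CPM, a ratio of 1.26 (1.22 to 1.32). After removal of the length and GC trend the ratio of the sum was 1.11, and HSPB1 was no longer past 1.2-fold, at 0.15.

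The 8 DNAJ genes, which bring clients to HSP70, summed to 1105 CPM in vector and 1142 CPM in PKP2, a ratio of 1.03 (1.01 to 1.05), with 5 members higher and 3 lower. DNAJA1, the farnesylated HSP40 most abundant per length, was at 389 and 383 CPM, a ratio of 0.985 (0.952 to 1.02). DNAJC7, which binds both HSP70 and HSP90 and has a fractional count, had the highest ratio of the family, at 110 and 129 CPM, a ratio of 1.17 (1.099 to 1.24). DNAJB2, known from neurons, was at 20.8 and 23.1 CPM, a ratio of 1.11 (0.960 to 1.29), and was the least abundant expressed member per kilobase of longest transcript (4.90), whereas per kilobase of principal transcript BAG2 (6.18) lay below it (6.92). DNAJB6, a suppressor of polyglutamine aggregation, was at 99.3 and 107 CPM, a ratio of 1.08 (1.01 to 1.16). Its difference went from 0.11 to 0.19 after removal of the length and GC trend. DNAJB4 was at 28.1 and 26.1 CPM, a ratio of 0.927 (0.812 to 1.06). DNAJA2 had a ratio of 1.07, with an interval from 1.000 to 1.14. For DNAJB1, DNAJB2, DNAJB4, DNAJA1 and DNAJA3 the interval included 1.

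BAG genes, whose products release clients from HSP70, were lower or equal. BAG1, which also binds BCL2 and the proteasome, was at 56.8 and 49.1 CPM, 1.16-fold lower (1.05 to 1.27). BAG2, an inhibitor of the ubiquitin ligase STUB1, was at 43.3 and 38.9 CPM, 1.11-fold lower with an interval from 1.000 to 1.24, whereas BAG3 did not differ detectably, as given above. BAG2 has a long transcript of 6651 bases, of which 42.7% of the gene's exon bases overlap RAB23 on the opposite strand. RAB23 was at 23.2 and 23.4 CPM. After removal of that trend BAG2 lay at 0.02 and BAG1 at -0.20.

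Co-chaperones of HSP90 and HSP70 summed to 2012 and 2030 CPM, a ratio of 1.01 (0.994 to 1.02). PTGES3, the p23 protein that stabilises the closed HSP90 dimer, was the most abundant of them per length and was at 670.5 and 631 CPM, 1.06-fold lower (1.03 to 1.09). CDC37, which loads kinases on HSP90, was at 170.2 and 194 CPM, a ratio of 1.14 (1.08 to 1.199). AHSA1, the activator of the HSP90 ATPase, was at 232 and 254 CPM, a ratio of 1.09 (1.04 to 1.14), and its difference of 0.13 turned to -0.02 after removal of the length and GC trend. STIP1, the HOP adaptor that joins HSP70 to HSP90, was at 437 and 445 CPM, a ratio of 1.02 (0.987 to 1.05). FKBP4, the FKBP52 immunophilin of steroid receptor complexes, was at 346 and 349 CPM, and CHORDC1, a heat-inducible HSP90 partner, was at 93.5 and 93.0 CPM. STUB1, the ubiquitin ligase CHIP that marks chaperone clients for degradation, was at 63.0 and 63.5 CPM. Its count was fractional and 42.4% of its exon bases overlap JMJD8 on the opposite strand, which was fractional as well, at 102 CPM in both.

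The CCT subunits were at similar levels. Each ring holds every subunit once, and the 8 transcripts had mean levels from 113 (CCT8) to 309 (CCT7) CPM per kilobase, a 2.75-fold range, against an 81.6-fold range over the HSP70 genes. Differences ran from -0.11 to 0.10, with 6 subunits higher and 2 lower, whereas after removal of the length and GC trend 3 lay above 0 and 5 below. CCT3 was at 546 and 586 CPM, a ratio of 1.07 (1.04 to 1.105), and CCT7 at 609 and 647 CPM, a ratio of 1.06 (1.03 to 1.09). With that trend taken out CCT3 lay at 0.02 and CCT7 at -0.01. TCP1, the alpha subunit, with a fractional count, was at 332 and 308 CPM, 1.08-fold lower (1.04 to 1.12), the 1 subunit with an interval below 1. CCT5 was at 504 and 522 CPM, a ratio of 1.04 (1.005 to 1.07). For CCT2, CCT4, CCT6A and CCT8, at ratios from 0.992 to 1.04, the interval included 1. The sum over the ring was 3393 and 3482.5 CPM, a ratio of 1.03 (1.01 to 1.04).

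**Figure D2:**
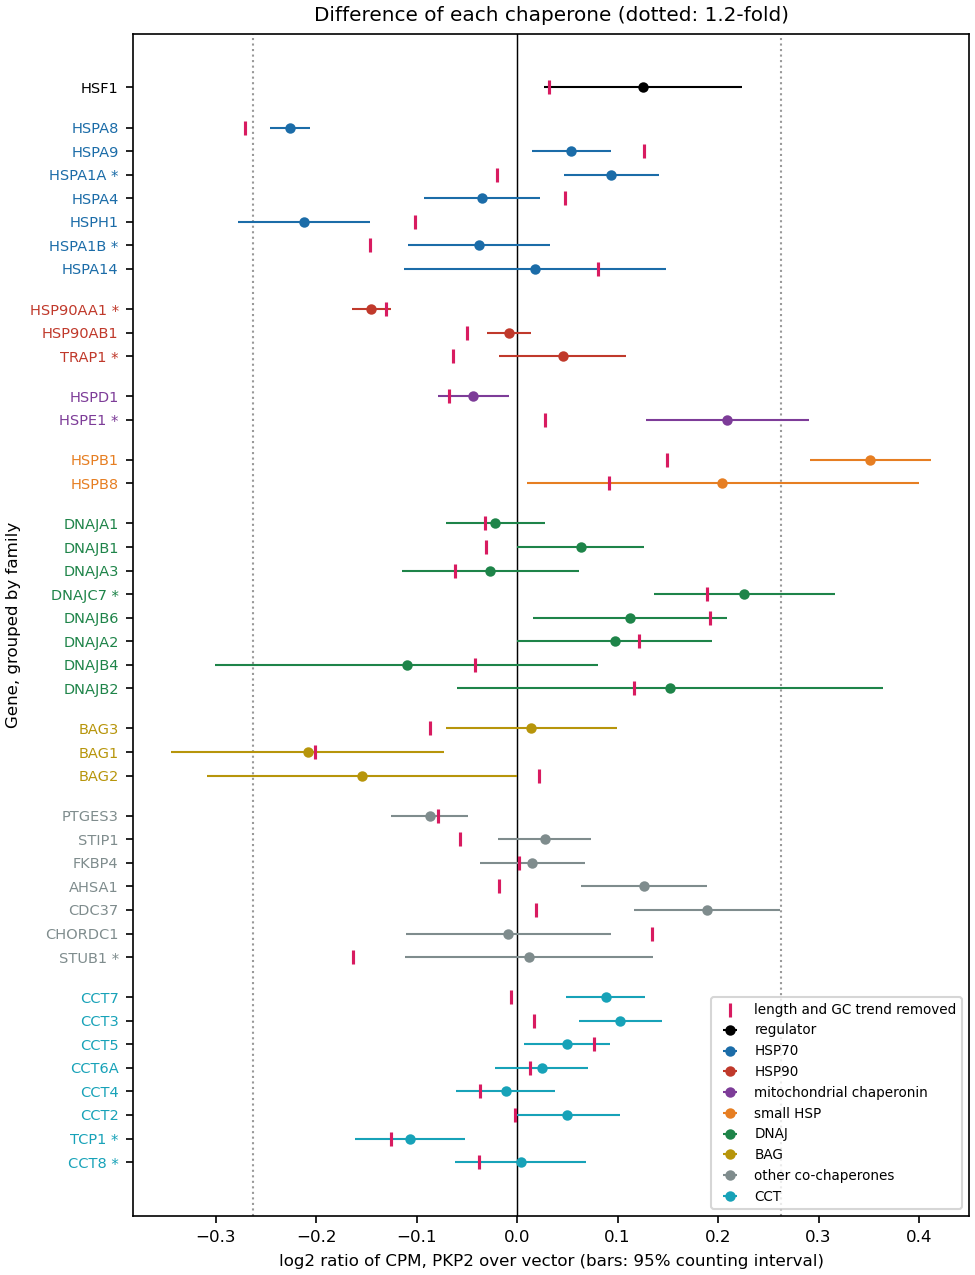
Log2 ratio of CPM, PKP2 over vector, of the 41 expressed chaperones, with 95% counting intervals; dotted lines stand at 1.2-fold and vertical ticks give the log2(CPM + 1) difference after removal of the length and GC trend. HSPB1 is the only point beyond a dotted line, and with the trend removed it lies at 0.15 while HSPA8 reaches -0.27.

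Across the transcriptome the differences went down with transcript length, and this touches the chaperones. When the genes at 20 CPM or more were cut into 5 classes by longest transcript, the shortest class (up to 2286 bases) lay at a median of 0.13 and the longest (from 6245 bases) at -0.18. The expressed chaperones had a median length of 2571 bases against 3932 for those genes, with 11 and 17 of the 41 in the shortest and next shortest class. With an additive trend on length and GC content removed, the chaperone median was -0.02, the median of genes at 20 CPM or more was -0.02 too, and 18 members were above 0 and 23 below, against 25 and 16 before. HSPA8 then passed the 1.2-fold step downward, at -0.27, and no member passed it upward. The share of all genes past that step after removal was not computed, so these counts have no background to set against. HSPH1 moved from -0.21 to -0.10 and CDC37 from 0.19 to 0.02, whereas DNAJC7, at 0.19, and HSP90AA1, at -0.13, changed little. Others moved away from 0, such as DNAJB6 from 0.11 to 0.19 and HSPA9 from 0.05 to 0.13. CHORDC1 went from -0.01 to 0.13 and STUB1 from 0.01 to -0.16. The trend used longest transcripts, and DNAJB6 has 7992 bases in its longest but 1609 in its principal transcript. A trend on principal transcripts was not computed. What the length trend comes from was not tested.

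**Figure D3:**
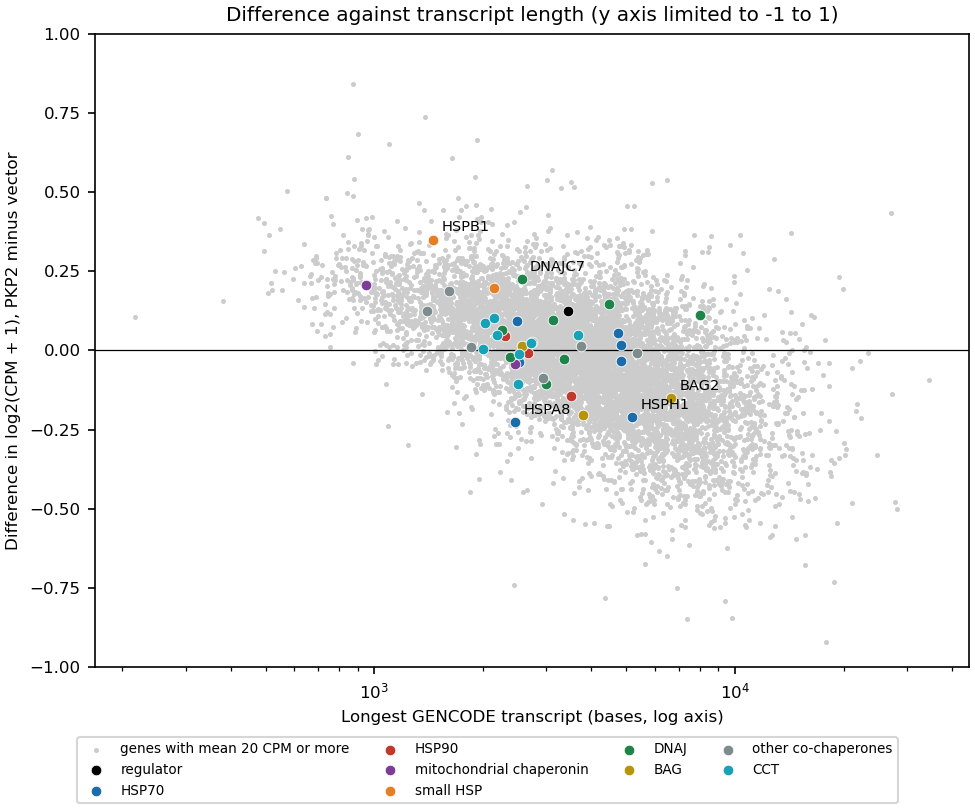
Difference in log2(CPM + 1), PKP2 minus vector, against the longest GENCODE transcript (log axis) for 7821 genes averaging at least 20 CPM (grey, 3 of them beyond the axis) and the 41 expressed chaperones (coloured by family). The grey cloud slopes from a median of 0.13 in the shortest of 5 length classes to -0.18 in the longest, and the chaperones lie within it.

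Fractional counts marked 9 of the 41 expressed members, HSPA1A, HSPA1B, HSP90AA1, TRAP1, HSPE1, DNAJC7, STUB1, TCP1 and CCT8, 21.95% against 18.6% of all expressed genes. Of these, 7 share at least 1 window of 50 bases with another GENCODE gene, as 17 of the 32 members with whole counts do. The median shared part was 8.59% of windows in the fractional members and 0.878% in those with whole counts. A shared part of 20% or more was found in 3 of 9 and 2 of 32. The labels do not name the annotation used for counting, and the part of pseudogene copies in these counts was not tested. Among members with whole counts, DNAJB6 shares 30.9% of its windows with other genes, HSPD1 24.8%, HSP90AB1 18.8%, CHORDC1 15.6%, HSPA8 15.4%, PTGES3 12.9% and HSPB1 11.4%, in each case chiefly with pseudogenes and with no protein-coding gene. Exons of 17 members overlap a gene on the opposite strand, with 20% or more of the exon bases in TRAP1, CRYAB, BAG2, STUB1 and CCT5, and their counts are uncertain where the counting did not use strand.

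Chaperone genes outside the set, from lists named in the processing section, were described in the same way. Of the 55 expressed ones among 62, 7 were at least 1.2-fold higher and 4 at least 1.2-fold lower in the PKP2 library, against 8.70% and 11.0% of all expressed genes. Prefoldin, which hands nascent actin and tubulin to CCT, was higher in 5 of 6 subunits, with a median of 0.23 and a summed ratio of 1.14 (1.098 to 1.18). PFDN6 was at 27.7 and 38.4 CPM, a ratio of 1.39 (1.23 to 1.57), PFDN2 at 32.2 and 39.5 CPM, a ratio of 1.23 (1.09 to 1.37), and PFDN5 at 96.8 and 117 CPM, a ratio of 1.21 (1.13 to 1.29). These transcripts are short, and after removal of the trend the prefoldin median was 0.11. Among the CCT and tubulin folding cofactors TBCE (fractional) was at 54.5 and 66.9 CPM, TBCA at 90.3 and 110 CPM and TBCB (fractional) at 140.0 and 169 CPM. All were at least 1.2-fold higher, while the list had 4 members higher and 4 lower. After removal of the trend TBCE lay at 0.40, TBCA at 0.31 and TBCB at 0.09, no longer past 1.2-fold. The list median went from 0.12 to 0.04.

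Of the other HSP70 genes and exchange factors 7 of 9 were lower, but after removal of the trend 4 lay above 0 and 5 below. HSPA13, a microsomal HSP70, was at 46.1 and 36.1 CPM, 1.28-fold lower (1.15 to 1.42), HSPA4L, an HSP110, at 44.7 and 35.6 CPM, 1.26-fold lower (1.13 to 1.40), and BAG5 at 50.2 and 43.8 CPM, 1.15-fold lower (1.04 to 1.27). HSPA4L has a longest transcript of 10790 bases and lay at -0.10 instead of -0.32 with the trend removed. The other DNAJ genes were split evenly, 5 higher and 5 lower. DNAJB14, of the endoplasmic reticulum membrane, was at 35.2 and 24.9 CPM, 1.42-fold lower (1.25 to 1.61), and DNAJC19, of the mitochondrial import motor, at 238 and 305 counts, a ratio of 1.296 (1.09 to 1.54). HSCB (fractional), which loads iron-sulfur clusters, was at 6.25 and 7.58 CPM with an interval from 0.929 to 1.58.

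The other HSP90 co-chaperones had a median of 0.06, with 10 of 13 higher and none past 1.2-fold, and after removal of the trend a median of 0.00 with 7 above 0 and 6 below. FKBP5, a glucocorticoid-induced immunophilin, was at 43.2 and 37.7 CPM, FKBP8 at 107 and 122 CPM and NUDC at 177 and 199.5 CPM. Mitochondrial quality control genes were lower in 4 of 6 cases, with a median of -0.12. After removal of the trend all 6 lay below 0, with a median of -0.085. Over all expressed genes the median after removal was -0.01, and the share of them below 0 was not counted. LONP1, at -0.02, lay near that median. CLPB, the mitochondrial disaggregase, was at 24.1 and 17.7 CPM, 1.36-fold lower (1.17 to 1.58), CLPX at 69.4 and 61.2 CPM, 1.14-fold lower (1.04 to 1.24), and YME1L1 (fractional) at 222 and 201 CPM, 1.11-fold lower (1.06 to 1.16). In the HSF family HSF2, HSF4 (fractional) and the HSF1-binding protein HSBP1 had ratios of 1.06, 1.16 and 1.07, of which the interval of HSBP1 alone lay above 1 (1.004 to 1.13). Of the other small heat shock genes 3 had a value and none was expressed.

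**Figure D4:**
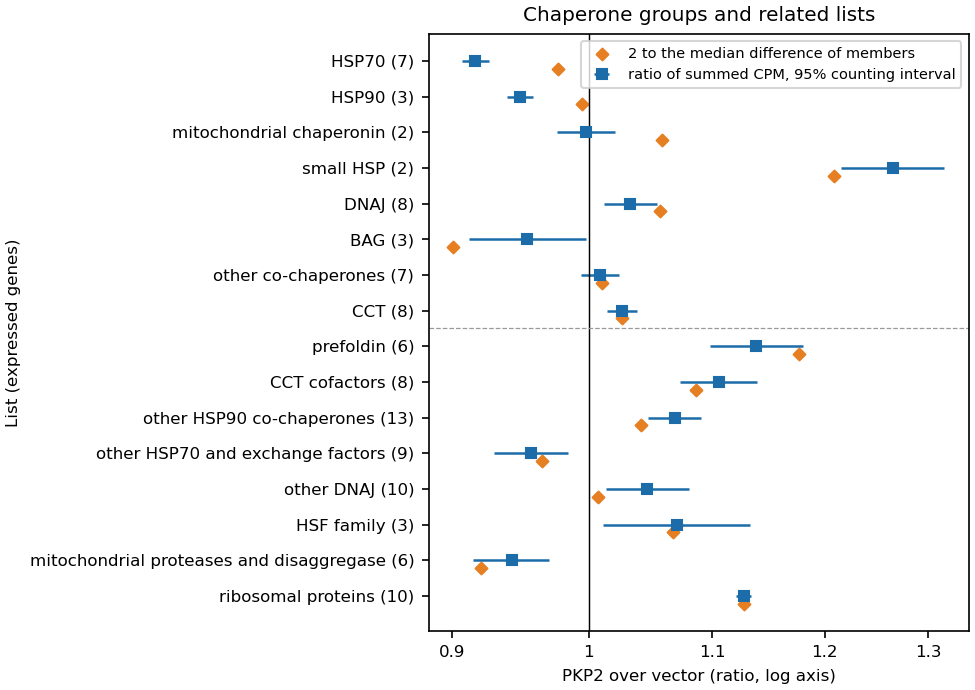
Ratio of summed CPM, PKP2 over vector (squares, with 95% counting intervals, log axis), and 2 raised to the median member difference (diamonds), for the 8 chaperone groups above the dashed line and for related lists and ribosomal proteins below it; the number of expressed genes is in brackets. The small heat shock group is highest, at 1.26, the HSP70 group is lowest, at 0.916, and prefoldin is at 1.14.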

How the data were processed

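RNA-seq of 1 vector and 1 PKP2 library of A549 was used. The deposited values are estimated counts per Entrez gene, called counts per the file headers and partly fractional. The submitters' processing notes name HISAT2 2.0.4, Bowtie2, RSEM 1.2.12 and GRCh38.p12. No source used here gives the annotation, strand setting or filters. Both files list 16399 genes, and 16183 IDs matched a symbol in RefSeq (GRCh38.p14). The count totals, 16996976 and 16808842, set the precision, and intervals cover counting error only.

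From these counts CPM was computed on the library total, and differences as log2(CPM + 1) with a pseudocount of 1. Genes reaching 1 CPM in either library were kept. Ratio intervals are exact 95% Clopper-Pearson intervals from counts rounded to whole numbers. A difference was counted at 1.2-fold on the log2(CPM + 1) scale, which understates low genes. No p-value was computed. Length and GC are those of the longest GENCODE release 29 transcript, and their trend was an additive lowess fit (span 0.3, statsmodels 0.14.6). The interval and the trend were tested on simulated data. Alternatives were pseudocounts of 0.1 and 5, other filters, scalings and steps, that trend removed, fractional genes left out and HSPA1A and HSPA1B summed.

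All members are accounted for. Named in full were HSF1, the most abundant member of each group per kilobase, and up to 4 per group with the largest difference at a mean of 5 CPM or more. From each list of related genes (HSF family, other HSP70 and exchange factors, other DNAJ, other HSP90 co-chaperones, other small heat shock genes, prefoldin, CCT cofactors, mitochondrial proteases and disaggregase) up to 3 were named. RAB23, JMJD8 and HSPE1-MOB4 were picked after their values were seen. Members, lists and the 1.2-fold step were chosen with earlier results of these data known. The 1.2-fold step was used because few genes had passed 1.5-fold in those results.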

Additional observations from a re-analysis of the deposited data

How the results depend on the processing

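The list median of 0.02 lay between -0.02 and 0.02 under all 9 alternatives. For medians the range used here ran from the median lower to the median upper bound of the members' own counting intervals. For the list it was -0.04 to 0.09. It is not an interval of the median itself, so a median that stays inside it shows little. The scalings and filters moved no summed ratio of a group beyond its counting interval, and pseudocounts do not enter a summed ratio. Pseudocounts, scalings and filters moved no group median beyond that range. Neither scaling shifted the log ratios by more than 0.01, and CRYAB is the only member that the filters concern. These settings could therefore move little. Removing the length and GC trend moved the summed ratios to 0.906 (HSP70), 0.938 (HSP90), 0.964 (mitochondrial chaperonin), 1.11 (small heat shock), 0.975 (other co-chaperones) and 0.997 (CCT), and the medians of HSP90 to -0.064, of the mitochondrial chaperonin to -0.020 and of small heat shock genes to 0.12. It left 0 members at least 1.2-fold higher and 1, HSPA8, lower, and 13 of 41 members changed sign (AHSA1, BAG2, BAG3, CCT2, CCT7, CCT8, CHORDC1, DNAJB1, HSPA1A, HSPA4, STIP1, STUB1 and TRAP1). Leaving out fractional genes gave summed ratios of 0.897 (HSP70), 0.995 (HSP90), 0.970 (mitochondrial chaperonin) and 1.04 (CCT), and a mitochondrial chaperonin median of -0.043; fewer genes enter these. Steps of 1.5-fold and 2-fold gave 0 higher and 0 lower, and 1.1-fold gave 6 and 5. The share of all genes past a step was not computed at 1.5-fold, at 2-fold or after trend removal. Per kilobase of the principal instead of the longest transcript (added after the values were seen) DNAJB6 ranked higher, STIP1 passed AHSA1 and CCT2 passed CCT6A, and no group's most abundant member changed. No paired analysis was possible because each group has 1 library.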

Other observations

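A few chaperone genes of very low level lay outside the lists or below 1 CPM in a library, and they were picked after their values were seen. HSPA1L, an HSP70 gene mainly known from testis that neighbours HSPA1A, had 56 counts in vector and 23 in PKP2, 2.41-fold lower (1.46 to 4.10). HSPA6, the strictly inducible HSP70 gene, had 4 and 11 counts, a ratio of 2.78 with an interval from 0.824 to 11.97. The readthrough gene HSPE1-MOB4 had 4.45 and 13.75 estimated counts, which are fractional and uncertain.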
